A study of Mus musculus with 15 samples.

Results

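Peaks in first introns are stretches of open chromatin that lie inside the first intron of an annotated transcript, away from the window that the peak annotation counts as promoter. The members were the rows of 4 deposited peak tables annotated to intron 1 of a transcript, after repeated rows were dropped and hosts with predicted-gene (Gm), microRNA (Mir) or Rik symbols were left out. They came to 435 separate loci in 357 host genes, 3.14% of the 13858 loci of the 4 tables, and filled 1126 table rows. Among listed peaks, position and host symbol alone chose them, and no fold, p or concentration entered the rule. Listing itself depends on the measurements, since every listed peak was called in at least 2 libraries.

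In mammalian genes the first intron is often the longest, and it commonly holds enhancers that act on the promoter of the same gene. It can also hold the promoter of a shorter transcript that starts downstream of the longest one. SWI/SNF complexes use ATP to move or evict nucleosomes, and ARID1A is a DNA-binding subunit of one form of the complex that is known for its role at enhancers.

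Open chromatin was measured by ATAC-seq, in which the transposase Tn5 inserts sequencing adapters into accessible DNA, on 40000 islet cells per library from male mice aged 3 months. Every mouse was homozygous for a floxed Arid1a allele (Arid1aFl/Fl) and carried MIP-rtTA, a doxycycline-dependent activator under the mouse insulin promoter. KO-labelled mice (Arid1a βKO) had TRE-Cre in addition, which directs Cre to beta cells, so the other cells of their islets were not targeted. All received doxycycline at 1 g/L for 2 weeks. The groups were control before partial pancreatectomy (PPx, removal of a part of the pancreas, after which beta cells divide; 4 libraries), KO-labelled before PPx (3), control 6 days after PPx (4) and KO-labelled 6 days after PPx (4). PPx was done 1 week after doxycycline was withdrawn. For the groups before PPx the labels give no time since withdrawal. A difference in that time cannot be told apart from PPx when islets after and before PPx are compared.

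The tables compare KO-labelled with control islets before PPx (7826 peaks, 180 of them members), the same after PPx (13111 and 385), controls after with controls before PPx (8070 and 210), and KO-labelled islets after with before PPx (12767 and 351). They give group means and no value per library, so the spread of single libraries and the depth per library are unknown. A concentration is a log2 group mean of normalised reads, and the median member stood at 11.1 to 13.6 normalised reads by table, against 13.7 to 16.2 for all peaks. A fold is the difference of 2 log2 group means, given as KO-labelled minus control or after minus before PPx, with the standard error (SE) that the fold and its p imply. Gained and lost mean an FDR of 0.05 or below in the authors' deposited table. Levels are compared only within a table, since the scaling of libraries is not stated.

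The targeted gene had more, not less, signal under the KO label at its single listed peak. That peak, in exon 9, stood at 1.21 in controls and 5.49 in KO-labelled islets before PPx by the authors' deposited table (FDR 0.00187), and at 0.40 and 4.04 after PPx (FDR 0.00201). The labels do not say which exon is floxed. Of the islet genes, Ins1, Nkx6-1 and Gcg had promoter peaks in the table of controls, with concentrations of 4.04, 3.91 and 3.65 by the authors' deposited table, and Sst had a distal peak at 4.29. Beta identity genes summed to 335 normalised reads before and 377 after PPx over 18 peaks, alpha cell markers to 61.5 and 65.6, delta and PP cell markers to 148 and 199, ductal markers to 162 and 205, endothelial markers to 111 and 130, stellate and fibroblast markers to 46.6 and 47.3, and leukocyte markers to 21.3 and 23.4. Acinar and Schwann cell markers had 0 listed peaks in controls (of 21 and 11 genes). All these sums and counts are of controls only. Between genotypes after PPx, acinar and Schwann cell markers had 2 and 3 listed peaks. In KO-labelled islets after against before PPx they had 1 and 3. The part of other cell types in the folds was not tested. Fewer cells of a type and a less open site per cell cannot be told apart in whole islets.

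Some first-intron members lie over a gene start. RefSeq starts on the GRCm38.p6 build (mm10) were available for 259 of the 357 hosts (72.5%), and 9 member loci (2.07%) held 10 starts. The 250 bases upstream of 5 of these starts follow, because the peaks are named here as intronic while their sequence is that of a start. The Bcar1 start is shown as the 1 among them whose peak was gained, Adk as a near miss, Ankrd11 as a start of a gene other than the named host, and Apbb1 and Zc3h12c as AT-richer contrasts. Capitals mark matches, on either strand, to 9 motifs: AP-1 TGANTCA, FOXA TGTTTAC, NeuroD E-box CAGATG, MAF motif TGCTGA, homeodomain TAATTA, RFX GTTGCC, CRE TGACGTCA, CTCF CCACNAGG and NRF1 core GCGCNTGC. No match overlaps another.
Bcar1, chr8:111732137-111732386, minus strand: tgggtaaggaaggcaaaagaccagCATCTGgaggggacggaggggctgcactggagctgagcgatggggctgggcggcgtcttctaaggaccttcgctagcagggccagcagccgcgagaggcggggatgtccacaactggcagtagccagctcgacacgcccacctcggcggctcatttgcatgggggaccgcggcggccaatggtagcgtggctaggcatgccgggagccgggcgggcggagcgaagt
Adk, chr14:21075902-21076151, plus strand: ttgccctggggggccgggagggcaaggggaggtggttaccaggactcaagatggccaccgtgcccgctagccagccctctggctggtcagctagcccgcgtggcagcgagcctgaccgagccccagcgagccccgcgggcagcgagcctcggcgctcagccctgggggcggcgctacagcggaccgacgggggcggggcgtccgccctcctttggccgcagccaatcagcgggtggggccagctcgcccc
Ankrd11, chr8:123042285-123042534, minus strand: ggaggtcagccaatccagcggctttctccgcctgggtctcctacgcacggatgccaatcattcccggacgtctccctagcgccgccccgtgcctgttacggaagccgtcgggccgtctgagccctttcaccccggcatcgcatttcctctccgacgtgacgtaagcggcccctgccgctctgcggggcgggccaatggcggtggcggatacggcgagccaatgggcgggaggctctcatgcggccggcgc
Apbb1, chr7:105569319-105569568, minus strand: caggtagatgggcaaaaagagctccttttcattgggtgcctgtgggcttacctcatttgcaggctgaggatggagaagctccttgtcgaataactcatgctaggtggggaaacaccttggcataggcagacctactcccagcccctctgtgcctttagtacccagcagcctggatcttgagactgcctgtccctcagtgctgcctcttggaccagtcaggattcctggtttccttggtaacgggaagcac
Zc3h12c, chr9:52149364-52149613, minus strand: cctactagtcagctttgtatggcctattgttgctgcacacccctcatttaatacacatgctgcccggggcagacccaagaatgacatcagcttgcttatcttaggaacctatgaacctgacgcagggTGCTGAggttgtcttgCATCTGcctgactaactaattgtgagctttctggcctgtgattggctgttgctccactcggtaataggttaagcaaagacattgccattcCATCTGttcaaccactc
The Adk, Ankrd11 and Bcar1 stretches held 75.2%, 68.8% and 67.2% G and C, above the upper quartile of 61.2% over 32851 RefSeq starts (median 52.4%). Their observed over expected CpG ratios were 0.68, 1.02 and 0.78, against a median of 0.37 over all starts. The Apbb1 and Zc3h12c stretches had 54% and 48% G and C and CpG ratios of 0.11 and 0.21. Bcar1 held 1 E-box, a motif found upstream of 14.4% of all starts, and Zc3h12c held E-boxes and a MAF motif, the latter found upstream of 16.1%. Adk, Ankrd11 and Apbb1 held no match to these letters in this window.

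The values at these starts are given gene by gene, and neither a difference between starts nor a link to base content was tested. Bcar1 encodes p130Cas, an adaptor of focal adhesions. Its peak, in intron 1 of 6, stood at 3.05 in controls and 4.24 in KO-labelled islets after PPx by the authors' deposited table, with a fold of 1.19 (SE 0.42, FDR 0.0429). Within KO-labelled islets it stood at 2.48 before and 4.24 after PPx by the authors' deposited table, a fold of 1.76 (SE 0.54, FDR 0.0353). It was called in 3 of 4 KO-labelled libraries after PPx and in 0 libraries of either group it was compared with. Calls and means come from the same reads. The peak over the start of Adk, which encodes adenosine kinase, had folds of 0.91 (SE 0.36, FDR 0.0559) and 0.93 (SE 0.44, FDR 0.0954) by the same authors' deposited tables. One peak that the tables assign to Galnt2l spans the starts of Ankrd11, a chromatin regulator gene, and 2810013P06Rik, which lie 291 bases apart on opposite strands. That peak stood at 3.49 in controls and 4.36 in KO-labelled islets after PPx by the authors' deposited table, with a fold of 0.87 (SE 0.37, FDR 0.0688). It was called in every KO-labelled library and in 0 of 4 controls. Between genotypes after PPx, the Apbb1 peak had a fold of 0.38 (SE 0.37, FDR 0.379) by the authors' deposited table, and the Zc3h12c peak 0.18 (SE 0.49, FDR 1). In KO-labelled islets after against before PPx, these 2 peaks had folds of 0.46 (SE 0.41) and 1.20 (SE 0.61). Peaks over the starts not shown had genotype folds after PPx of 0.55 (Gmnc, SE 0.56), 0.59 (Lims1, SE 0.59), 0.57 (Oit1, SE 0.45) and -0.14 (Cacna2d1, SE 0.48).

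Hosts of first-intron peaks were long genes. The median RefSeq length was 131 kb over the 354 hosts matched, against 30 kb over 7996 named genes with any peak, and 61.9% of hosts exceeded 100 kb against 19.3%. Hosts of later-intron peaks were of like length, with a median of 151 kb. A long intron offers more room for a peak to be counted as intronic, and no allowance for length was made. The 299 hosts with a single locus made up most of the 357, while 15 held 3 or more. Ank (a pyrophosphate transporter), Dlg2 (a synaptic scaffold), Efna5 (an ephrin ligand), Kcnip4 (a potassium channel subunit) and Maml3 (a Notch coactivator) held 4 each. The nearer end of the gene was a median of 28.8 kb away, and 349 loci lay 10 kb or more from both ends. Of the 431 loci matched to a RefSeq gene, 8 lay outside it. A promoter peak in some table accompanied 228 hosts (63.9%).

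First-intron loci were more often listed only where KO-labelled libraries after PPx took part. Of the 435 loci, 145 (33.3%) were listed in all 4 tables, against 49.2% of all loci and 59.4% of promoter loci. The 203 loci (46.7%) listed in no table other than those 2 compare with 35.9% of all loci and 29.1% of promoter loci. Later-intron loci (46.2%) and distal loci (47.8%) had shares like that of first introns. A table lists a peak only if it was called in at least 2 of its libraries, and 166 of the 385 members after PPx (43.1%) were called in no more than 2, against 27.3% of all peaks.

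**Figure D1:**
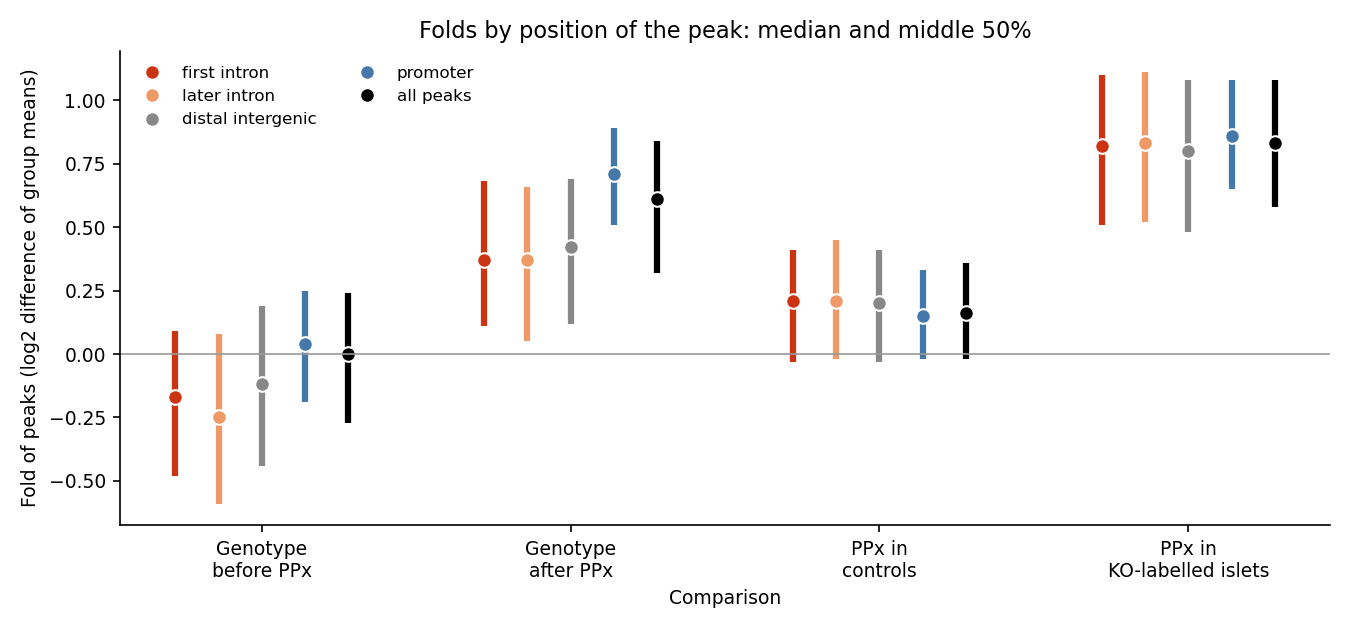
Median (points) and middle 50% (bars) of the log2 fold of peaks in first introns, later introns, distal intergenic sequence and promoters of named genes, and of all peaks, in the 4 comparisons. After PPx the median of KO-labelled minus control was 0.37 in first introns and 0.71 at promoters, while within KO-labelled islets it was 0.82 and 0.86.

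After PPx, KO-labelled islets had more signal than controls at most first-intron peaks, but by less than at promoters. The median fold over 385 members was 0.37 (middle 50% from 0.11 to 0.68), against 0.61 over all peaks, 0.71 over promoters, 0.37 over later introns and 0.42 over distal peaks. By the authors' test 9 members were gained and 0 lost, which is 2.34% gained against 9.89% gained (and 0.0839% lost) over all peaks. This table sets the FDR of its weakest peaks to 1. At an unadjusted p under 0.05, 54 members were higher and 4 lower (over all peaks 33% and 0.526%). Among peaks with an FDR below 1, 9 of 188 members (4.79%) were gained, against 15.1% of all such peaks, 18.9% of promoters and 4.2% of later introns. The first-intron median was below the promoter median in each of 4 equal bins of concentration, with 0.34, 0.37, 0.45 and 0.47 in first introns from the lowest to the highest and 0.62, 0.63, 0.70 and 0.77 at promoters.

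The gained peaks lay in genes of unlike function, and 8 of the 9 are described. Marchf4, a membrane-bound ubiquitin ligase gene, had a peak (chr1:72493334-72493934) at 2.51 and 4.16 by the authors' deposited table, a fold of 1.64 (SE 0.43, FDR 0.0212). Its group means were thus more than 1 log2 unit apart, over 3 times the SE.

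Oxr1, a gene of the response to oxidative stress, stood at 2.80 and 4.25 by the authors' deposited table (fold 1.45, SE 0.44, FDR 0.0286), although its peak (chr15:41461583-41462183) was called in only 2 of the 8 libraries, both KO-labelled. Sgcz, which encodes a sarcoglycan, stood at 3.15 and 4.35 by the authors' deposited table (fold 1.19, SE 0.41, FDR 0.0422), and its peak (chr8:38610960-38611560) was called in every KO-labelled library and in 0 of 4 controls. Nfkb1, the gene of the p105/p50 subunit of NF-kB, stood at 3.98 and 4.95 by the authors' deposited table at chr3:135674902-135675502 (fold 0.98, SE 0.34, FDR 0.0425). These 3 had the higher mean and more peak calls in KO-labelled libraries. The calls come from the same reads as the means and add no separate support. Calls in 3 or more KO-labelled libraries and in 0 controls were seen at 3.64% of members and 7.94% of all peaks.

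Lama2, which encodes a laminin chain of basement membranes, held the strongest of the gained peaks (chr10:27524120-27524720). It stood at 4.94 in controls and 5.88 in KO-labelled islets by the authors' deposited table (fold 0.94, SE 0.34, FDR 0.0459) and was called in all 8 libraries. Zfp13, a zinc finger gene, had a fold of 0.91 (SE 0.34, FDR 0.0494) from 4.18 to 5.09 by the authors' deposited table. Nol4, a gene of the nervous system, had a fold of 0.85 (SE 0.32, FDR 0.0496) from 4.53 to 5.39, the last to pass. Bcar1 is given above beside its sequence. Just outside the threshold were Ccnd3, which encodes cyclin D3 (fold 1.07, FDR 0.0504), Slc35f1 (1.01, FDR 0.0534), Adk, Ank (0.97, FDR 0.0574) and Nek6, a mitotic kinase gene (1.01, FDR 0.06), by the authors' deposited table.

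These calls rest on the deposited scaling and adjustment. Adjusted by Benjamini-Hochberg over all listed peaks, 3 members passed, among them Marchf4 and Oxr1 (0.779%, against 4.2% of all peaks). With folds centred on the median of all peaks (a shift of 0.61), 0 members were higher and 2 were lower, against 2 higher (0.0153%) and 50 lower (0.381%) over all peaks. The 2 were Fbxw4, at 5.38 in controls and 4.70 in KO-labelled islets, and Kctd16, at 6.59 and 6.02, with FDRs of 0.107 and 0.13 by the authors' deposited table. Fbxw4 was named after its values were seen, while Kctd16 was also among the 5 members of highest concentration before PPx between genotypes.

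**Figure D2:**
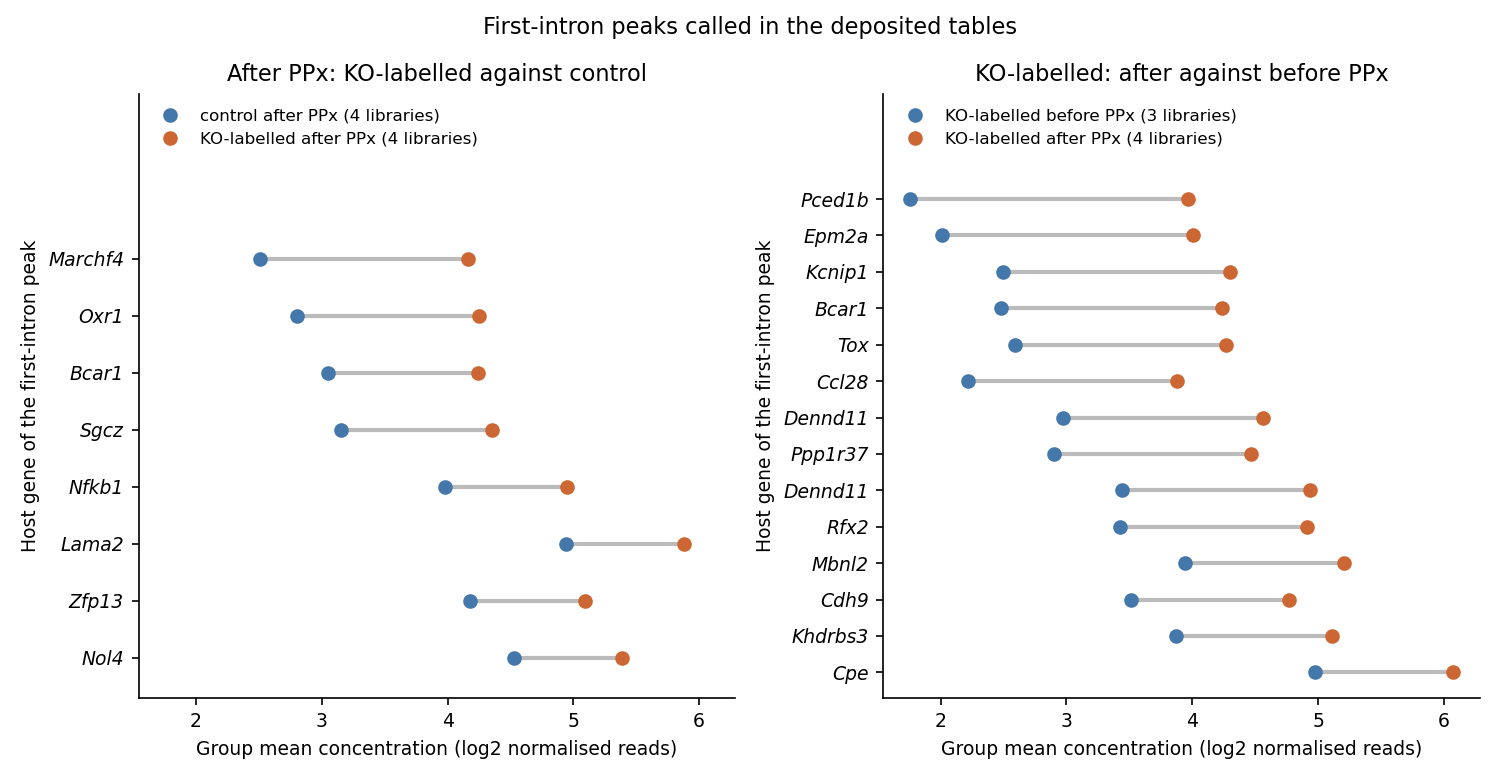
Group mean concentrations (log2 normalised reads) of first-intron peaks called at an FDR of 0.05 or below: 8 of the 9 peaks after PPx, KO-labelled against control, and 14 of the 15 peaks in KO-labelled islets, after against before PPx. The group after PPx with the KO label has the higher mean at each peak shown, and the distance is widest for Pced1b, from 1.76 to 3.97.

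Within KO-labelled islets, first-intron peaks had higher means after than before PPx, by about as much as promoters. The median fold over 351 members was 0.82 (middle 50% from 0.51 to 1.10), against 0.83 over all peaks, 0.86 over promoters, 0.83 over later introns and 0.80 over distal peaks. By the authors' test 15 members were gained and 0 lost, 4.27% against 7.45% gained over all peaks. At an unadjusted p under 0.05, 115 members were higher and 0 lower (over all peaks 39.4% and 0.0235%). Among peaks with an FDR below 1 the share was 6.3% of 238 members, against 9.42% of all such peaks and 11.3% of promoters. Later introns had 7.04% and distal peaks 5.39%, so the lower share was common to peaks outside promoters. With folds centred on the median of all peaks (a shift of 0.83), 0 members and 0 of all peaks passed.

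Pced1b, a gene of the esterase-like PC-esterase family, had the widest of the called differences. Its peak (chr15:97276436-97277036) stood at 1.76 before and 3.97 after PPx by the authors' deposited table (fold 2.21, SE 0.59, FDR 0.0262). Epm2a, which encodes the glycogen phosphatase laforin, stood at 2.01 and 4.01 by the authors' deposited table (fold 1.99, SE 0.56, FDR 0.0289) at chr10:11364685-11365285. Kcnip1, a subunit gene of A-type potassium channels, stood at 2.50 and 4.30 by the authors' deposited table (fold 1.80, SE 0.52, FDR 0.0303) at chr11:33744343-33744943. None of the 3 was called in a KO-labelled library before PPx, and each was called in 3 of 4 after it. Calls in 0 libraries before and 3 or more after PPx were seen at 8.83% of members and 8.87% of all peaks.

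Rfx2, a transcription factor gene of ciliated cells, held a peak (chr17:56814246-56814846) at 3.43 before and 4.91 after PPx by the authors' deposited table (fold 1.49, SE 0.45, FDR 0.0349). Mbnl2, a splicing regulator gene, stood at 3.94 and 5.21 by the authors' deposited table (fold 1.27, SE 0.39, FDR 0.0374), with calls in every library (chr14:120312682-120313282). Khdrbs3, another RNA-binding splicing factor gene, stood at 3.87 and 5.11 by the authors' deposited table (fold 1.24, SE 0.40, FDR 0.041). Tox, which encodes an HMG-box factor, stood at 2.59 and 4.27 by the authors' deposited table (fold 1.68, SE 0.54, FDR 0.041). All 4 had a higher mean after PPx by more than 3 times the SE, and were picked because they were called. Between genotypes, Mbnl2, Khdrbs3 and Tox had folds of -0.22, -0.45 and -0.95 before and 0.56, 0.29 and 0.93 after PPx, none called. In controls, the strongest first-intron peaks of Rfx2, Mbnl2 and Khdrbs3 had folds of 0.27 (SE 0.35), 0.55 (SE 0.33) and 0.53 (SE 0.37) after PPx.

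Dennd11, which encodes a DENN-domain protein, held 2 called peaks in 1 intron, at chr6:40431262-40431862 and chr6:40429505-40430105. They stood at 3.44 and 4.94 (fold 1.51, SE 0.46, FDR 0.0351) and at 2.97 and 4.56 (fold 1.59, SE 0.49, FDR 0.0374) by the authors' deposited table, and share their host. Ppp1r37, a protein phosphatase 1 regulator gene, stood at 2.90 and 4.47 by the authors' deposited table (fold 1.57, SE 0.47, FDR 0.0339). Bcar1 is among the hosts called in both comparisons, which share the 4 KO-labelled libraries after PPx.

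Nearest to the threshold on its inner side were Cdh9, a cadherin gene (fold 1.26, FDR 0.045), Cpe (1.09, FDR 0.0467) and the chemokine gene Ccl28 (1.66, FDR 0.0491), with Tox and Khdrbs3, by the authors' deposited table. Just outside lay Denn2b (1.53, FDR 0.0507), Zfp13 (1.21, FDR 0.0509), Laptm4b (1.22, FDR 0.0509), Map7 (1.49, FDR 0.051) and Sntg1 (1.66, FDR 0.051) by the authors' deposited table. Adjusted over all listed peaks, 14 members passed, 12 of them among the 15. The other 2, Ube4b and Gpat4, have a deposited FDR of 1 and were named after their values were seen.

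Cpe is the called host with the plainest link to islets, since carboxypeptidase E trims basic residues from proinsulin and other prohormones. It held 3 first-intron loci. The strongest (chr8:64664737-64665337) stood at 4.98 before and 6.07 after PPx in KO-labelled islets by the authors' deposited table (fold 1.09, SE 0.37, FDR 0.0467) and at 5.24 and 5.41 in controls (fold 0.18, SE 0.33, FDR 0.999). In KO-labelled against control islets it had folds of -0.25 (SE 0.32, FDR 1) before and 0.71 (SE 0.35, FDR 0.102) after PPx by the authors' deposited tables. Another locus, at chr8:64629213-64629813, stood at 2.93 before and 3.86 after PPx in controls by the authors' deposited table (fold 0.92, SE 0.43, FDR 0.999). The remaining locus had folds of 0.68 (SE 0.40) in KO-labelled islets and -0.21 (SE 0.35) in controls by the authors' deposited tables.

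Before PPx no first-intron peak was called between the genotypes. The authors' test gave 0 gained and 0 lost of 180 members (over all peaks 0.0128% gained and 0% lost), and the lowest FDR among members was 1. At an unadjusted p under 0.05, 2 members were higher (over all peaks 0.843%) and 11 lower (2.3%). The median fold was -0.17, against 0.00 over all peaks, 0.04 over promoters, -0.25 over later introns and -0.12 over distal peaks, and 57 of 180 members (31.7%) lay above 0.

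Values with the smallest p before PPx were higher in KO-labelled islets for Sgcz (3.37 in controls and 4.34 in KO-labelled islets, fold 0.96, SE 0.46, FDR 1) and Usp25, a deubiquitinase gene (fold 1.02, SE 0.50), by the authors' deposited table. Mtap, Tead4 and Lama2 followed with folds of 0.89, 1.25 and 0.60 by the authors' deposited table. Sgcz and Lama2 are also among the 9 gained peaks after PPx, in a comparison that shares no library with this one. Usp25 and Mtap, in turn, had genotype folds of only 0.19 and 0.42 after PPx and were not called. Whether such values recur was not tested. On the lower side, Fam155a (a channel-associated gene) stood at 4.22 and 3.06 by the authors' deposited table (fold -1.16, SE 0.45, FDR 1). Ptprj, a receptor phosphatase gene, had a fold of -1.44 (SE 0.56), Map7 of -1.33 (SE 0.54), Dennd11 of -1.07 (SE 0.46) and the calcium pump gene Atp2b2 of -1.16 (SE 0.53) by the authors' deposited table. None of these passed the authors' test.

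PPx in control islets left first-intron peaks near the table's median. The authors' test gave 0 gained and 0 lost of 210 members (over all peaks 0% in both directions), with a lowest member FDR of 0.999. At an unadjusted p under 0.05, 5 members were higher (over all peaks 2.43%) and 2 lower (0.0991%), and with folds centred on the median of all peaks (a shift of 0.16) 0 members passed (over all peaks 0.0124%, higher). The median fold was 0.21, against 0.16 over all peaks and 0.15 over promoters. Among the smallest in p were the formin gene Fmnl2 (2.24 before and 3.50 after, fold 1.26, SE 0.50), Tmtc2 (0.94, SE 0.44), the Cpe locus given above and Fam171a1 (0.93, SE 0.46) by the authors' deposited table. On the lower side were Chst9 (-0.98, SE 0.48), Atp2b2 (-0.87, SE 0.43), a Galnt2l locus away from the Ankrd11 start (-1.0, SE 0.55), Adk (-0.52, SE 0.34) and Marchf4 (-0.74, SE 0.52) by the authors' deposited table.

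**Figure D3:**
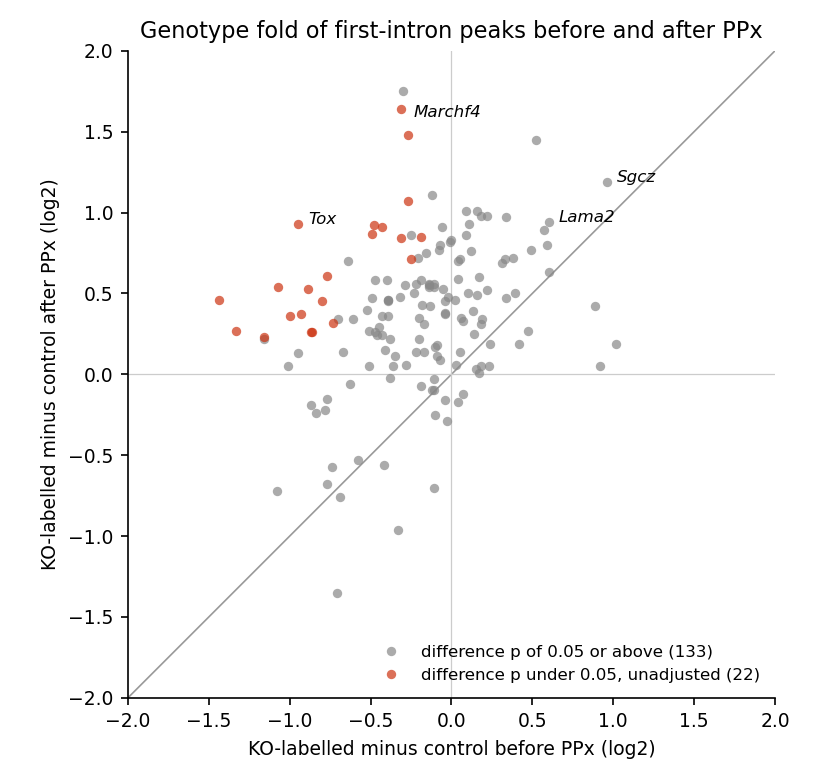
KO-labelled minus control fold (log2) of 155 first-intron peaks matched between the 2 genotype tables, before PPx (horizontal) and after PPx (vertical), with the line of equal folds. Most points (135) lie above the line, and 22, in red, have a difference with an unadjusted p under 0.05.

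The difference of the genotype fold between the states was tested directly, since the 2 genotype tables share no library. Over 155 matched members the median difference, after minus before PPx, was 0.60, against 0.64 over 7504 matched peaks, and 135 members (87.1%) were above 0 against 92.2%. After Benjamini-Hochberg adjustment of the two-sided z test 0 members were called, against 0.0133% higher and 0.0133% lower over all matched peaks. At an unadjusted p under 0.05, 22 members were higher and 0 lower (over all matched peaks 14.4% and 0.12%). Among the smallest p values were those of Tox (folds of -0.95 before and 0.93 after, difference 1.88, SE 0.67), a Dennd11 peak (-1.07 and 0.54, difference 1.61, SE 0.59) and Marchf4 (-0.31 and 1.64, difference 1.95, SE 0.75), all at an adjusted p of 0.304.

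The matched loci let the 4 means of a gene be read side by side within tables. Tox stood at 3.92 and 2.97 before and at 3.32 and 4.25 after PPx by the authors' deposited tables. Sgcz differed from it, at 3.37 and 4.34 before and at 3.15 and 4.35 after PPx by the authors' deposited tables. In Sgcz the KO-labelled mean was the higher in both states, while in Tox it was the lower before PPx and the higher after it. Tox was named for the small unadjusted p of its difference (adjusted p of the z test 0.304). It was not called between genotypes in either state. The median difference over all matched peaks was 0.64, and the contrast of these 2 genes was not tested.

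**Figure D4:**
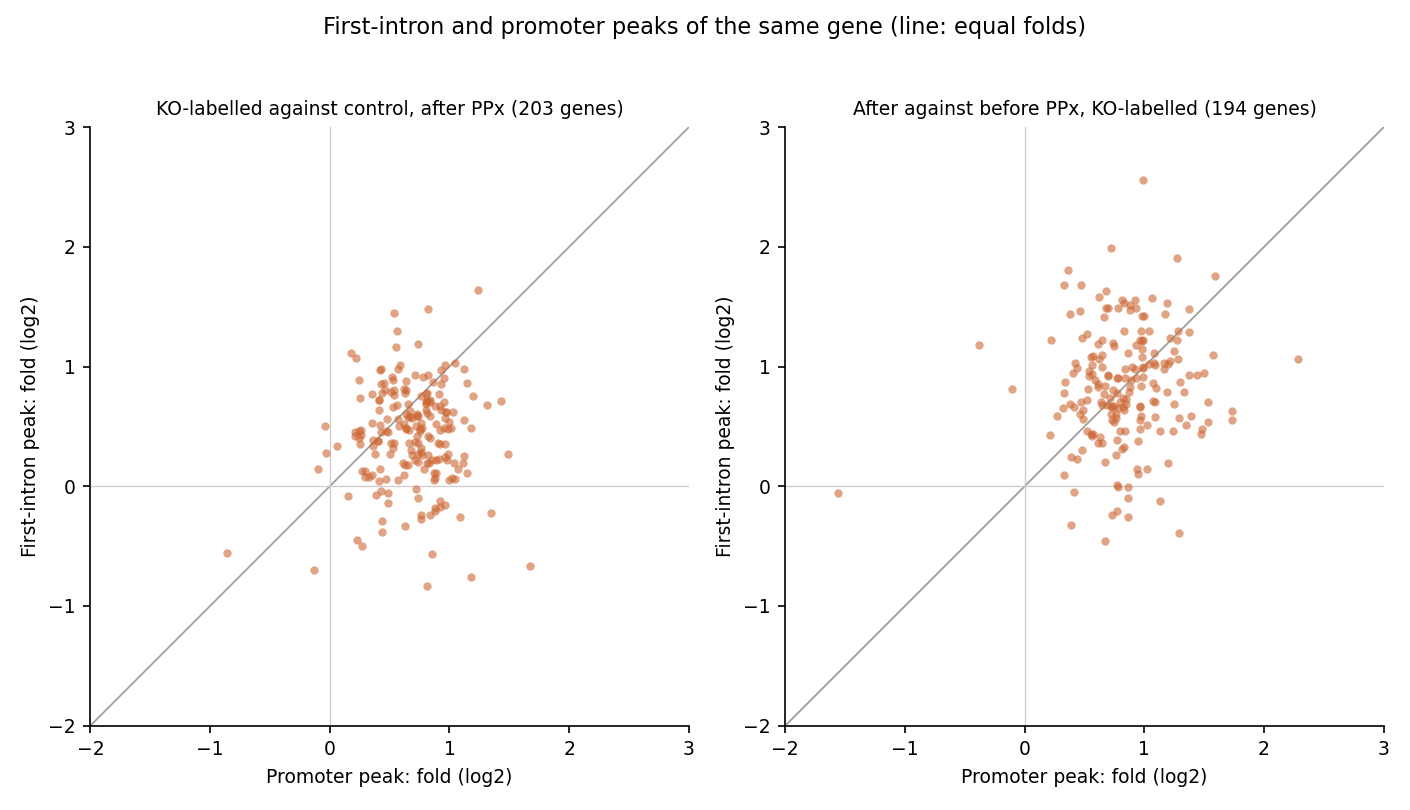
Fold (log2) of the first-intron peak against that of the promoter peak of the same gene, with the line of equal folds, after PPx between genotypes (203 genes) and in KO-labelled islets after against before PPx (194 genes). Points lie mostly below the line in the first (146 of 203 genes) and about evenly around it in the second (98 of 194 below).

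Hosts that also had a promoter peak allow the intron to be set against the promoter of the same gene. After PPx, 203 hosts had both listed, with a median KO-labelled minus control fold of 0.46 in the intron and 0.73 at the promoter. The intron had the lower fold in 146 of the 203 (71.9%), with a median difference of -0.23 (middle 50% from -0.56 to 0.07). The promoter was also the more accessible site, with a median concentration of 4.25 against 3.59. Among these genes 7 introns and 30 promoters were gained, and 1 gene, Marchf4, had both. Its promoter had a fold of 1.24 (SE 0.43, FDR 0.0425), from 3.18 to 4.42 by the authors' deposited table. Over all peaks of each class, 2.34% of first-intron peaks and 14.6% of promoters were gained. With shares this small few shared genes would be counted even if the calls were unrelated, and the overlap was not tested. Oxr1 and Nfkb1 promoters had folds of 0.54 (SE 0.32) and 0.43 (SE 0.37) by the authors' deposited table, beside 1.45 and 0.98 in their introns. These introns were picked because they were called, so their folds are high by that choice. Their promoters were not picked by value, so the gap is no measure of intron against promoter.

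Before PPx the intron had the lower fold in 51 of 77 hosts, with medians of -0.13 and 0.24. For PPx in KO-labelled islets 98 of 194 introns were lower (medians 0.83 and 0.82), and in controls 43 of 90 (0.24 and 0.20). In KO-labelled islets 8 introns and 13 promoters of these hosts were gained after PPx, and no gene had both. Over all peaks of each class, 4.27% of first-intron peaks and 9.98% of promoters were gained there. With shares this small few shared genes would be counted even if the calls were unrelated, and the overlap was not tested. Epm2a, Tox and Mbnl2 promoters had folds of 0.72 (SE 0.42), 0.33 (SE 0.55) and 0.52 (SE 0.40) by the authors' deposited table, where their introns were called. These genes too were picked by their introns, whose folds are high by that choice. Khdrbs3 had a promoter fold of 1.21 (SE 0.51, FDR 0.0736) beside 1.24 in its intron by the authors' deposited table. Genes are not replicates, so these counts carry no test.

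Hosts of first-intron peaks were 357 of the 8029 named genes with a peak of any kind. Their numbers in each gene list were not tested and make no allowance for gene length. None of 46 beta cell identity genes held a first-intron member, and 23 of them had a peak of some kind. With 357 hosts among 8029 genes, a count of 0 in a list this small is near the overall share and is not read as a lack. SWI/SNF subunits (30 genes, 16 with a peak), TGF-beta and activin signalling (30 and 17) and the markers of alpha, delta and PP, acinar, stellate cells and fibroblasts, leukocytes and Schwann cells also held 0. Neuronal type adhesion genes held 17 loci in 15 of 72 genes (52 with a peak) and ion channel genes 13 loci in 9 of 71 (45 with a peak). Smaller numbers came from ERBB and MAPK signalling (7 loci in 4 of 60 genes), exocytosis (5 in 4 of 49), insulin, IGF and mTOR signalling (4 in 3 of 37), cell cycle (3 in 3 of 49), other chromatin regulators (2 in 2 of 57), AP-1 and stress factors (1 in 1 of 33), cyclic AMP signalling (Akap6, 1 of 41), ductal markers (Cftr and Slc4a4, of 19) and endothelial markers (Mecom and Tek, of 26). Of all these, Nfkb1 after PPx and Kcnip1 in KO-labelled islets were the 2 called.

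The adhesion hosts, among them the contactins, protocadherins and teneurins that join nerve cells, had a median fold of 0.34 over 15 peaks after PPx (all peaks 0.61), from -1.39 to 0.76, with 0 called. In KO-labelled islets after PPx their median was 0.62 over 12 peaks (all peaks 0.83), with 0 called. Epha3, an ephrin receptor gene, stood at 3.72 and 4.41 by the authors' deposited table after PPx (fold 0.69, SE 0.38, FDR 0.14). Ion channel hosts had a median of 0.23 over 12 peaks after PPx, with 0 called, and of 0.68 over 10 peaks in KO-labelled islets, with Kcnip1 called. The related Kcnip4 had the strongest channel peak, at 5.29 and 5.43 after PPx by the authors' deposited table (fold 0.14, SE 0.29, FDR 0.682). Kcnip1 stood at 3.95 and 4.30 by that same authors' deposited table (fold 0.34, SE 0.34, FDR 0.398), and did not pass between genotypes.

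Signalling hosts included ligand, receptor and effector genes. Nrg3, which encodes a neuregulin ligand of ERBB4, had 3 listed loci after PPx, with folds of 0.98 (SE 0.40, FDR 0.0615), 0.31 (SE 0.38, FDR 0.486) and 1.13 (SE 0.45, FDR 1) by the authors' deposited table. Its receptor gene Erbb4 stood at 4.38 and 4.19 (fold -0.19, SE 0.40, FDR 0.692), and Egfr at 4.58 and 4.72 (fold 0.14, SE 0.36, FDR 0.749), by the authors' deposited table. A weaker Egfr locus stood at 3.30 and 3.59 by the authors' deposited table (fold 0.29, SE 0.41, FDR 1). In KO-labelled islets after against before PPx the fold was 0.99 (SE 0.48) at Erbb4, 0.74 (SE 0.42) and 1.27 (SE 0.56) at Egfr, and from 0.92 (SE 0.48) to 1.34 (SE 0.56) at Nrg3, by the authors' deposited table. None of these receptor and ligand peaks passed the test in either comparison. Irs1, the gene of an insulin receptor substrate, stood at 4.13 and 4.90 by the authors' deposited table (fold 0.77, SE 0.36, FDR 0.0868), and Deptor, an mTOR inhibitor gene, at 4.41 and 4.86 (fold 0.45, SE 0.31, FDR 0.227). Ptprn2, which encodes a protein of insulin granules, stood at 4.11 and 4.29 by the authors' deposited table (fold 0.18, SE 0.33, FDR 0.649).

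Among regulators of division and chromatin, Ccnd3 was nearest to a call, at 3.22 and 4.29 after PPx by the authors' deposited table (fold 1.07, SE 0.40, FDR 0.0504) and was called in every KO-labelled library but in 0 of 4 controls. Rb1 had a weak peak at 2.26 and 2.86 by the authors' deposited table (fold 0.60, SE 0.62, FDR 1). Chd7, a chromatin remodeller gene, had folds of -0.77 (SE 0.41, FDR 1) before and 0.61 (SE 0.37, FDR 0.172) after PPx by the authors' deposited tables. Kat2b, a histone acetyltransferase gene, had -0.70 (SE 0.44, FDR 1) after PPx by the authors' deposited table.

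Filip1l and Cldn34d held the first-intron peaks of highest concentration. Filip1l, which encodes an inhibitor of cell migration, stood at 7.16 in controls and 7.12 in KO-labelled islets before PPx by the authors' deposited table (fold -0.03, SE 0.32). After PPx it stood at 6.95 and 6.66 by the authors' deposited table (fold -0.29, SE 0.27, FDR 0.359). Cldn34d, a claudin-family gene on the X chromosome, stood at 7.03 and 6.92 before and at 6.98 and 6.87 after PPx by the authors' deposited tables. Both were called in every library of each table. Their folds in KO-labelled islets after PPx were -0.24 (SE 0.43) and 0.18 (SE 0.33) by the authors' deposited table, below the median of 0.82 of the class. Other strong peaks had other values: Kctd16 had folds of -0.74 (SE 0.59) between genotypes before and -0.57 (SE 0.31) after PPx by the authors' deposited tables, and the strong peaks of Lama2 and Cpe were among those called. The Filip1l promoter, by contrast, was a weak peak at 3.26 and 3.70 after PPx by the authors' deposited table (fold 0.44, SE 0.47, FDR 1).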

How the data were processed

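The authors deposited 4 tables, one per comparison of 15 ATAC-seq libraries, on the mm10 build; cutadapt, BWA, MACS, DiffBind and ChIPseeker were used, per the submitters' processing notes, with versions and settings not given in the sources used here. Deposited concentrations and folds are log2 values of normalised reads averaged over a group, and no source used here states the scaling. The deposited p-value and FDR come from the authors' test, whose method the file headers do not name. Deposited counts give, per group, the number of libraries in which a peak was called. Every listed peak is 601 bp wide and was called in at least 2 libraries. Repeated rows were dropped (1197, 5281, 1337 and 4588, in the order the comparisons are first described).

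Groups were taken from the sample titles, and the sign of folds was turned so that a positive value means more signal under the KO label or after PPx. Promoter, first-intron and other classes are those of the deposited annotation, with promoters within 3 kb of a start. The SE of a fold was obtained by dividing its size by the normal quantile that its p (two-sided) gives. This reads the p as a measure of spread between libraries, and whether a library is 1 mouse is not stated. Where the fold was under 0.1 or the p at least 0.95, the median SE in 1 of 40 concentration bins was used. Peaks of different tables were matched by at least 1 bp. For the difference of genotype folds, a two-sided z test was run on all matched peaks and adjusted by Benjamini-Hochberg. The scripts were tested on simulated data. Gene lengths and starts came from RefSeq (GRCm38.p6). Python 3.11.15, numpy 2.4.6, pandas 2.3.3, scipy 1.17.1 and matplotlib 3.10.9 were used.

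The members and the 21 gene lists were chosen with earlier results of these data known. Named per comparison were the 8 gained and 8 lost peaks of smallest FDR (1 per gene; where fewer than 3 were called, the 5 of smallest p in each direction), the 5 of highest concentration, the 5 just inside and outside the threshold, and listed genes that were called, listed in all 4 tables or strongest in their list. Sequence of the peaks themselves was not analysed here, since no genome was used. Alternatives were a stricter FDR, adjustment over listed peaks, centring, and narrower or wider sets of members. Results of some hosts and of 1 of the 21 gene lists are not reported here.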

Additional observations from a re-analysis of the deposited data

How the results depend on the processing

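At an FDR of 0.01, 0 first-intron peaks were called after PPx between genotypes (9 at 0.05) and 0 in KO-labelled islets after PPx (15 at 0.05). Adjustment over all listed peaks gave 3 after PPx between genotypes and 14 in KO-labelled islets. Centring on the median of all peaks turned the direction of the calls after PPx between genotypes (2 called, both lower) and gave 0 in KO-labelled islets, and it moved the median folds to -0.24 and -0.01. Centred, the 9 and 15 called peaks kept positive folds, from 0.24 to 1.03 and from 0.26 to 1.38, with adjusted p from 0.735 to 0.996 and of 1.0. Centring moved the median fold of PPx in controls from 0.21 to 0.05. With predicted and microRNA genes included, 9 and 17 peaks were called, and without peaks over a RefSeq start, chosen after seeing the data, 8 and 14. Over predicted genes included, 1 peak per gene, strong peaks only, peaks called in at least 3 libraries and, chosen after seeing the data, 10 kb or more from both gene ends, the median fold ranged from -0.22 to -0.15 between genotypes before PPx and from 0.36 to 0.45 after it. It ranged from 0.18 to 0.22 after PPx in controls and from 0.79 to 0.86 in KO-labelled islets. The test of the difference of genotype folds gave 0 calls with an overlap of at least 301 bp and when centred.

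Members whose host gene differs from the assigned gene do not occur, so that alternative repeats the main values. The planned distance of 10 kb from the start was not run, because fewer than 80% of hosts have a start in the table used, and peak sequence was not analysed here. No paired analysis was possible because sample numbers in the titles are unique and the tables hold group means. Leaving out single libraries was not possible for the same reason, so no call was checked against 1 library. Depth per library is unknown, and in the 2 tables with KO-labelled libraries after PPx low-concentration peaks have an FDR of 1 whatever their p.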
